A study of Mus musculus with 12 samples.

Results

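The 10 genes described here encode the core of Polycomb repressive complex 2 (Ezh1, Ezh2, Eed, Suz12), the DNA methyltransferases (Dnmt1, Dnmt3a, Dnmt3b), 2 proteins that act with them (Uhrf1, Hells) and the DNA demethylation enzyme Tet2. They were taken by name from the 46103 genes of the expression files of a mouse chronic myeloid leukemia (CML) model, with numbered copies of a gene summed, and no gene of this list had such copies. All 10 passed the filter on low values, at least 1 RPKM in at least 3 libraries, as did 10072 genes in all. Each of the 12 libraries held RNA of 100 sorted cells of bone marrow and spleen that carried BCR-ABL1 and were LSK, that is, without lineage markers and with Sca1 and c-Kit.

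DP cells (BCR-ABL1+CD27+G0M+KSL) and SP cells (BCR-ABL1+CD27+G0M-KSL) came from CML mice given vehicle, with 3 libraries each. IMDP cells (G0M+) and IMSP cells (G0M-) came from CML mice that received imatinib, which blocks the kinase BCR-ABL1, again with 3 libraries each. Imatinib was given by gavage once a day at 40 mg/kg, starting 10 days after transplantation. In all 4 groups, marrow of 5FU-treated C57BL/6 donors was transduced with a BCR-ABL1 retrovirus and placed in lethally irradiated recipients, which also received untransduced marrow. G0M is a fluorescent fusion of a p27 mutant that marks the G0 phase. It sits at Rosa26 and is switched on by Vav1-Cre, which is active in blood cells. The study's reporting summary gives female mice of 6 to 12 weeks for its experiments, without naming the age in each group. The labels do not say whether the 3 libraries of a group came from different mice, so the p values measure the spread between libraries, which may be technical.

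Polycomb repressive complex 2 (PRC2) places methyl groups on lysine 27 of histone H3, a mark of silenced genes. EZH2 and EZH1 are its alternative catalytic subunits. EZH2 is typical of dividing cells, whereas EZH1 is also found in resting cells. DNMT1 copies DNA methylation to the new strand after replication with the help of UHRF1, DNMT3A and DNMT3B add methylation to unmethylated sites, and TET2 oxidizes 5-methylcytosine. DNMT3A and TET2 are among the genes most often mutated in human myeloid disease.

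The totals behind the RPKM values came to 11.4 to 20.6 M reads per library. Between 25.9% and 37.1% of them lay on listed genes, with the lowest shares in IMDP replicates 2 and 3 (25.9% and 27.1%) and the highest in IMSP cells (32.6% to 37.1%). Mki67, a gene of dividing cells, was at 10.9 to 21.2 RPKM in DP cells, 50.8 to 57.7 in SP cells, 7.18 to 10.1 in IMDP cells and 54.5 to 70.6 in IMSP cells. Of the sort markers, Kit was at 16.8 to 39.8, Cd27 at 12.2 to 21.4 and Ly6a (Sca1) at 3.12 to 20.8 RPKM over all libraries, and Cdkn1b, which encodes p27, at 5.90 to 9.92 RPKM. Summed markers of mast cells and basophils (10 genes) reached 76.3 to 329 RPKM in DP and 14.9 to 194 in IMDP cells against 10.5 to 23.0 in SP and 7.92 to 24.4 in IMSP cells, with Tpsab1 at 0 throughout and Cma1, Mcpt4 and Tpsb2 at 0 in SP and IMSP cells. Macrophage markers (8 genes) summed to 5.39 to 15.8 and 8.37 to 12.8 RPKM in DP and IMDP cells and to at most 2.08 in the others, where C1qa, C1qb, C1qc and Cd5l were at 0. Neutrophil and monocyte markers (10 genes) summed to 72.9 to 1430 RPKM in DP cells, 389 to 2650 in SP cells, 80.0 to 304 in IMDP cells and 524 to 2230 in IMSP cells. Lymphoid markers (9 genes) summed to at most 2.83 RPKM. Erythroid markers (9 genes) summed to 217 to 273 RPKM in DP cells, above the 106 to 183 of SP cells, and to 66.7 to 236 in IMDP and 25.4 to 116 in IMSP cells. Megakaryocyte markers (7 genes) summed to 8.29 to 131 RPKM and overlapped between DP and SP and between IMDP and IMSP cells. The part of these cells and of the unequal shares in the results below was not tested, except where values without a library or under another scaling are given. In sorted bulk RNA, fewer cells with a transcript and less of it per cell cannot be told apart.

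Among vehicle-treated cells, no gene of the 10 passed the threshold in DP versus SP cells. Among imatinib-treated cells, 7 of the 10 did in IMDP versus IMSP cells, with Ezh2, Suz12, Dnmt1, Eed, Uhrf1 and Tet2 lower and Dnmt3a higher in IMDP cells. The contrasts were tested with limma on log2(RPKM + 0.1) over all 10072 genes, which understates the change of low genes, and called at a Benjamini-Hochberg adjusted p under 0.05. By this rule 2.26% of all genes were called in DP versus SP cells, and 2.37% higher and 23.3% lower in IMDP versus IMSP cells. Over all genes the median log2 fold change was -0.25 in the imatinib comparison and -0.02 in the vehicle comparison, and over the 10 genes it was -0.67 and -0.03. Below, a fold change relative to all genes is the value minus that median.

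**Figure D1:**
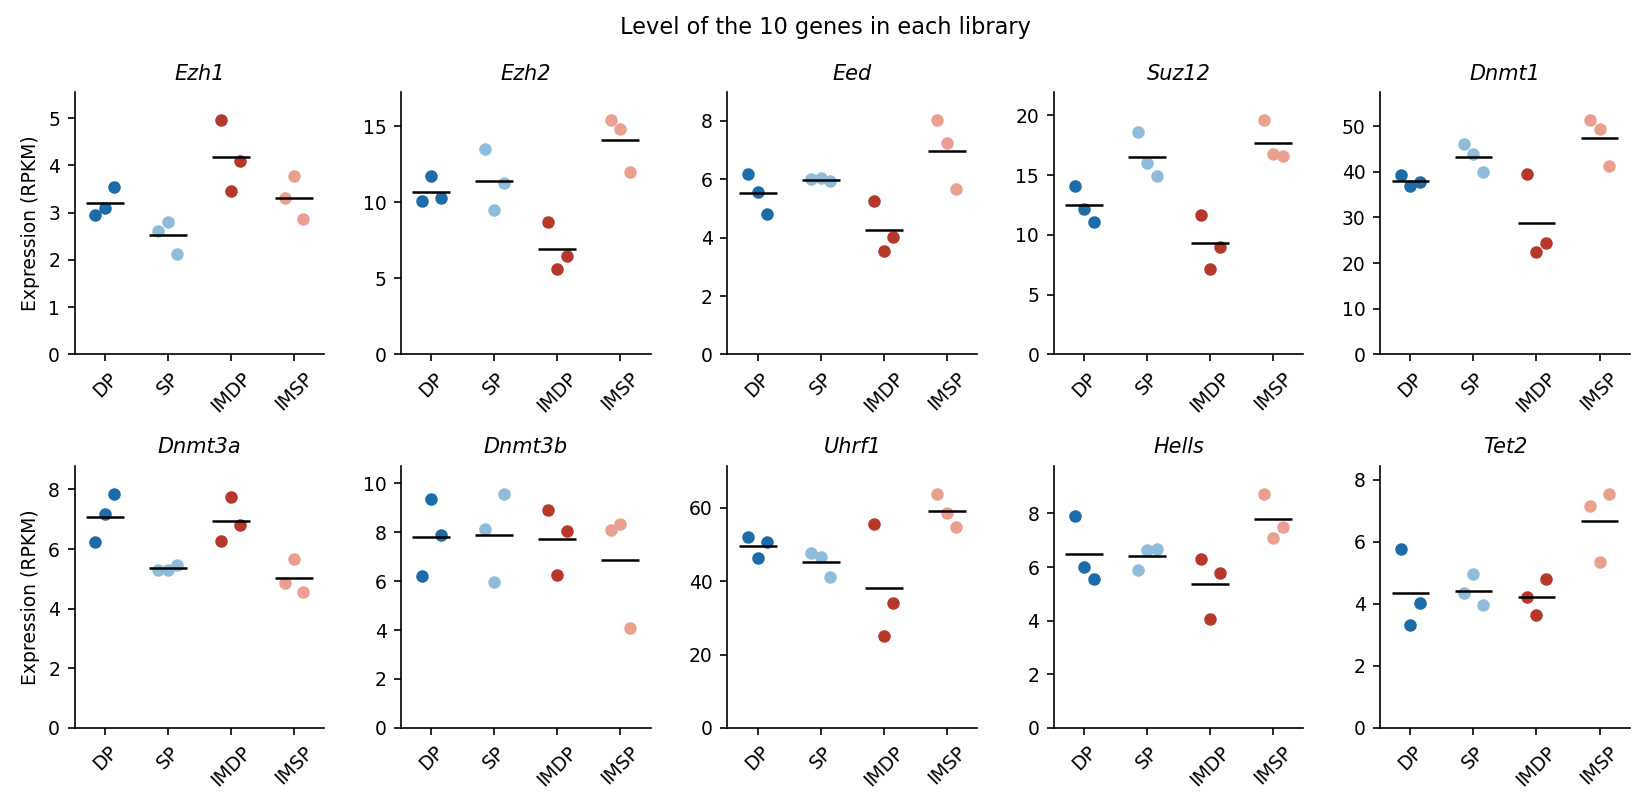
Expression of the 10 genes in RPKM (vertical axes from 0) in each library of the 4 groups, with a point per library and a line at the mean of each group of 3. IMDP libraries sit below the IMSP libraries for Ezh2, Eed, Suz12, Dnmt1, Hells and Tet2, and above them for Dnmt3a.

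Ezh2 (chromosome 6, 47530274 to 47595270, GRCm38.p6) was at 10.1, 11.7 and 10.3 RPKM in DP cells, 13.5, 9.51 and 11.3 in SP cells, 8.68, 5.60 and 6.48 in IMDP cells and 15.4, 14.8 and 12.0 in IMSP cells. The 3 IMDP libraries were the lowest of all 12 and did not overlap with any other group, the DP libraries lay below the IMSP libraries, and the SP libraries overlapped with both. The log2 fold change in IMDP versus IMSP cells was -1.03 ± 0.18 (SE, 95% interval -1.43 to -0.62, adjusted p in limma = 0.00358), and -0.77 relative to all genes. In DP versus SP cells it was -0.08 ± 0.18 (95% interval -0.49 to 0.32, adjusted p in limma = 0.865). The values behind Ezh2 rest on 257 to 857 reads per library.

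Ezh1 (chromosome 11, 101191115 to 101226463) had the lowest mean of the 10 genes, 3.30 RPKM over the libraries, and was at 2.96, 3.11 and 3.55 RPKM in DP cells, 2.62, 2.80 and 2.13 in SP cells, 4.96, 3.45 and 4.09 in IMDP cells and 3.32, 3.78 and 2.87 in IMSP cells. Its highest group was IMDP and its lowest SP. The DP libraries all lay above the SP libraries, and the IMDP and IMSP libraries overlapped. Ezh1 differed by 0.34 ± 0.18 in DP versus SP cells (95% interval -0.05 to 0.73, adjusted p in limma = 0.439) and by 0.31 ± 0.18 in IMDP versus IMSP cells (95% interval -0.08 to 0.70, adjusted p in limma = 0.210), so neither difference passed. Relative to all genes these values were 0.36 and 0.57. Once every library was scaled to the same median, the value in IMDP versus IMSP cells was 0.58 and passed (adjusted p in limma = 0.0247). With 121 to 292 reads per library, Ezh1 had the fewest reads of the 10 genes.

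Ezh1 and Ezh2 were then set against each other within each library, where the scaling of the library drops out except for the pseudocount. Ezh1 made up 22.6%, 21% and 25.7% of the summed Ezh1 and Ezh2 RPKM in DP cells, 16.3%, 22.7% and 15.9% in SP cells, 36.4%, 38.1% and 38.7% in IMDP cells and 17.8%, 20.4% and 19.3% in IMSP cells. The 3 IMDP libraries lay above the 9 others without overlap, the DP libraries lay above the IMSP libraries, and the SP libraries overlapped with both. On the log2 scale the ratio of Ezh1 to Ezh2 was -1.71 ± 0.19 (SD, n = 3) in DP cells, -2.13 ± 0.35 in SP cells, -0.71 ± 0.07 in IMDP cells and -2.05 ± 0.12 in IMSP cells. Within a library its 95% counting interval, which covers counting error only, ran from -1.02 to -0.56 in the lowest IMDP library and from -1.74 to -1.27 in the highest library of the other groups.

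Averaged over both treatments, the log2 ratio was 0.88 higher in G0M+ than in G0M- cells, a 1.84-fold difference (exact permutation test within treatments, two-sided, p = 0.015, adjusted p = 0.045 over 6 tests on 3 ratios, smallest possible p 0.005). It was 0.43 higher in DP than in SP cells, where the libraries overlapped, and 1.34 higher in IMDP than in IMSP cells, where they did not. With 3 libraries a side, an exact permutation test of a single pair of groups cannot go below p = 0.1. Averaged over both populations, the ratio was 0.54 higher with imatinib (exact permutation test, p = 0.04, adjusted p = 0.08), made of 1.00 in IMDP versus DP cells and 0.09 in IMSP versus SP cells. The difference between these values, 0.91, had an exact permutation p of 0.065 (treatment labels permuted within populations, adjusted p = 0.188 over 3 ratios), a test added after the data were seen. When each G0M+ library was paired with the G0M- library of the neighbouring library number, 5 of 6 pairs went the same way (difference 0.88, exact sign flips, p = 0.0625, smallest possible 0.03125). With 6 pairs a ratio on its own cannot pass after adjustment, so the pairing does not decide whether the call holds. The unpaired call was lost without DP replicate 3 (0.83, exact permutation adjusted p = 0.06), SP replicate 1 or SP replicate 3 (0.83 each, adjusted p = 0.075).

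**Figure D2:**
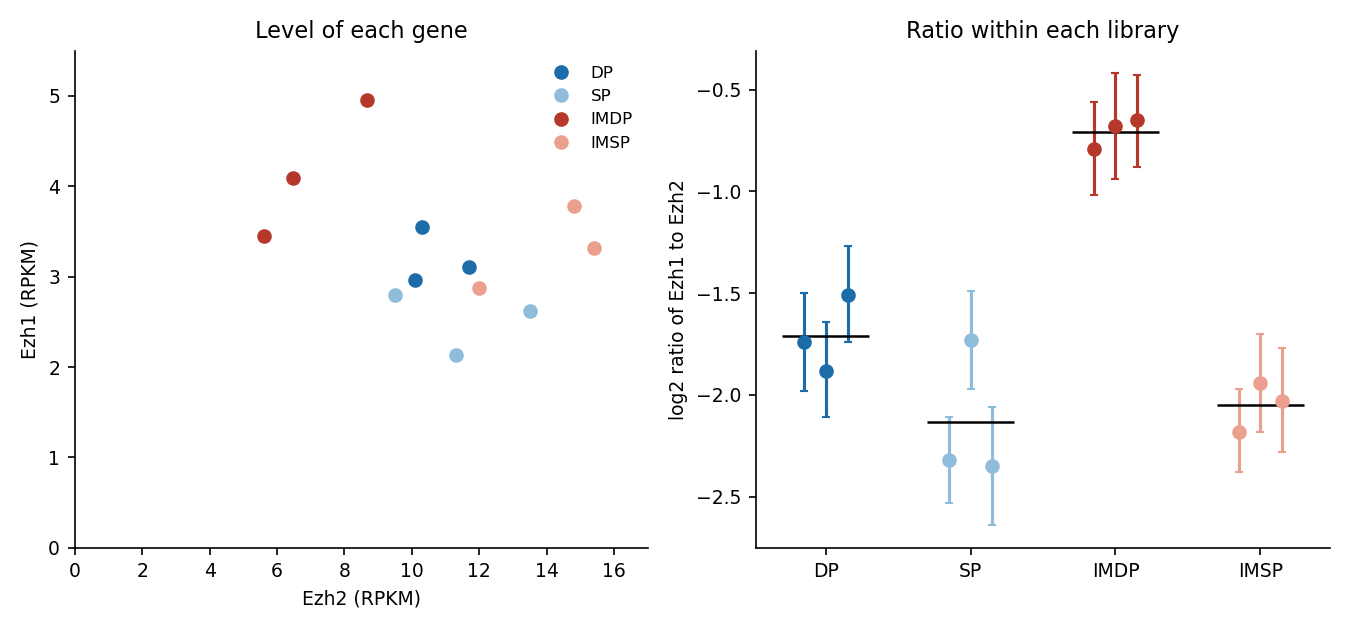
Left, Ezh1 against Ezh2 in RPKM, with a point per library. Right, the log2 ratio of Ezh1 to Ezh2 in each library by group, with bars for the 95% counting interval and lines at the group means, which are -1.71 in DP cells, -2.13 in SP cells, -0.71 in IMDP cells and -2.05 in IMSP cells.

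The 250 bases before the start of Ezh1, Ezh2 and Suz12, printed 5′ to 3′ from RefSeq (GRCm38.p6), are shown because these subunits of one complex differed in their pattern. Capitals mark matches, on either strand, to the E2F letters TTTCCCGC or TTTGGCGC (and these without the first T), the NF-Y box CCAAT or the cell cycle homology region TTTGAA. The Ezh1 sequence spans chr11:101226464-101226713 on the minus strand, the Ezh2 sequence chr6:47595031-47595280 on the minus strand and the Suz12 sequence chr11:79992856-79993105 on the plus strand.
Ezh1: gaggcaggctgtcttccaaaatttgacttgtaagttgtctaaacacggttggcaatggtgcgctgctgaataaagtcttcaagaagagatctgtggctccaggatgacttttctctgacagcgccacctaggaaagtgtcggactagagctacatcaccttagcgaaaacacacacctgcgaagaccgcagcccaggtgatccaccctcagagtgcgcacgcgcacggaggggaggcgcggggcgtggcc
Ezh2: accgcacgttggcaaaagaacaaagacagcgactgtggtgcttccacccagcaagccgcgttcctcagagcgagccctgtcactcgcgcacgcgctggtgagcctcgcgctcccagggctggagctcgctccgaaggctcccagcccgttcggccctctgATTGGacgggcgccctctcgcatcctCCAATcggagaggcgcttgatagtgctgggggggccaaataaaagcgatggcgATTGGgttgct
Suz12: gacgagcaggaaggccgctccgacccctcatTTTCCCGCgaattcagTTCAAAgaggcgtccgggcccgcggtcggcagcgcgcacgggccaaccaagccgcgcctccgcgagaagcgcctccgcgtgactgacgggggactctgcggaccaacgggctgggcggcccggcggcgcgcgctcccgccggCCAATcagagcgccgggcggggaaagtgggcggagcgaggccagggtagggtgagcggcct
In windows of 300 bases, from 250 before to 50 after each start, Ezh1, Dnmt3a and Tet2 held none of these letters. Ezh2 held CCAAT at 3 places, 90, 64 and 11 bases before the start, and TTTGGCGC after the start, in the part not printed. Suz12 held TTTCCCGC 219 bases before the start, TTTGAA 203 and CCAAT 61 bases before it. Among the other genes, TTTCCCGC lay 62 bases before the Hells start and TTCCCGC 48 bases before a Uhrf1 start. TTTGGCGC lay after the start in 1 of 3 Dnmt1 windows. CCAAT was also found for Eed, Dnmt1 and Uhrf1, and TTTGAA for Eed, Dnmt1 and Dnmt3b. Of the 10 genes, TTTCCCGC was found for 2, beside 1.24% of the 27025 genes with a window, and TTTGGCGC for 2, beside 0.585%. CCAAT was found for 5 of the 10, beside 41.1%, and TTTGAA for 4, beside 20.2%. The 7-letter forms TTCCCGC and TTGGCGC, which the longer ones contain, were found for 3 and 2 of the 10, beside 5.29% and 2.85%. A match is a description of the sequence and not a bound site, and a window without one says only that these letters are not in it.

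Suz12 (chromosome 11, 79993106 to 80034123), the scaffold of PRC2, was at 14.1, 12.2 and 11.1 RPKM in DP cells, 18.6, 16.0 and 14.9 in SP cells, 11.7, 7.19 and 8.98 in IMDP cells and 19.6, 16.8 and 16.6 in IMSP cells. Every G0M+ library lay below every G0M- library. The log2 fold change was -0.94 ± 0.18 in IMDP versus IMSP cells (adjusted p in limma = 0.00482) and -0.40 ± 0.18 in DP versus SP cells (adjusted p in limma = 0.370). Averaged over both treatments Suz12 was 1.59-fold lower in G0M+ cells (log2 fold change -0.67 ± 0.13, adjusted p in limma = 0.00386).

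Eed (chromosome 7, 89954654 to 89980976), which binds the H3K27 mark, was at 6.20, 5.57 and 4.81 RPKM in DP cells, 6.02, 6.03 and 5.93 in SP cells, 5.26, 3.54 and 4.01 in IMDP cells and 8.03, 7.24 and 5.66 in IMSP cells. The IMDP libraries lay below the IMSP libraries, and DP and SP libraries overlapped. The log2 fold change was -0.70 ± 0.18 in IMDP versus IMSP cells (adjusted p in limma = 0.0161) and -0.12 ± 0.18 in DP versus SP cells (adjusted p in limma = 0.777).

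Dnmt1 (chromosome 9, 20907206 to 20959888), the maintenance methyltransferase, was at 39.2, 36.9 and 37.8 RPKM in DP cells, 46.0, 43.8 and 39.9 in SP cells, 39.5, 22.4 and 24.3 in IMDP cells and 51.3, 49.3 and 41.2 in IMSP cells. The G0M+ libraries lay below the G0M- libraries within each treatment, and the first IMDP library was at the level of DP cells. Dnmt1 was 1.69-fold lower in IMDP than in IMSP cells (log2 fold change -0.76 ± 0.19, adjusted p in limma = 0.0149) and differed by -0.18 ± 0.19 in DP versus SP cells (adjusted p in limma = 0.686).

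Uhrf1 (chromosome 17, 56303337 to 56323486), which brings DNMT1 to replicated DNA, was the most abundant of the 10 genes per kilobase, with 48.1 RPKM on average over the libraries. It was at 52.0, 46.4 and 50.6 RPKM in DP cells, 47.8, 46.5 and 41.3 in SP cells, 55.7, 25.0 and 34.0 in IMDP cells and 63.9, 58.5 and 54.8 in IMSP cells. The first IMDP library stood above the other IMDP libraries and overlapped with IMSP cells. The log2 fold change was -0.70 ± 0.22 in IMDP versus IMSP cells (adjusted p in limma = 0.0393) and 0.14 ± 0.22 in DP versus SP cells (adjusted p in limma = 0.807).

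Hells (chromosome 19, 38930262 to 38970470), a chromatin remodeller needed for DNA methylation, was at 5.56 to 7.90 RPKM in DP and 5.91 to 6.68 in SP cells. It was at 6.31, 4.06 and 5.79 RPKM in IMDP and 8.74, 7.10 and 7.49 in IMSP cells, without overlap. Its log2 fold change in IMDP versus IMSP cells, -0.54 ± 0.19, did not pass (adjusted p in limma = 0.0515). It passed under 7 of 24 alternatives, among them a pseudocount of 1, limma-voom and leaving out DP replicate 1, a library outside this comparison. Hells also passed when the equally numbered IMDP and IMSP libraries were treated as pairs, in both replicate blocks tried (adjusted p in limma = 0.0416 with the title numbers of all groups and 0.0104 with neighbouring library numbers, a block under which 44.1% of all genes were called).

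Dnmt3a (chromosome 12, 3801559 to 3914443) went the other way. It was at 6.24, 7.16 and 7.86 RPKM in DP cells, 5.29, 5.31 and 5.47 in SP cells, 6.26, 7.73 and 6.82 in IMDP cells and 4.85, 5.67 and 4.56 in IMSP cells. Every G0M+ library lay above every G0M- library. Dnmt3a was 1.37-fold higher in IMDP than in IMSP cells (log2 fold change 0.46 ± 0.14, and 0.71 relative to all genes, adjusted p in limma = 0.0339), 1.31-fold in DP versus SP cells, where it did not pass (0.39 ± 0.14, adjusted p in limma = 0.245), and 1.34-fold averaged over both treatments (0.42 ± 0.10, adjusted p in limma = 0.0106).

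Dnmt3b (chromosome 2, 153649411 to 153687730), the other de novo methyltransferase, ranged from 4.10 to 9.57 RPKM and overlapped between all groups. Its log2 fold change was 0.23 ± 0.28 in IMDP versus IMSP cells (95% interval -0.38 to 0.83, adjusted p in limma = 0.571) and -0.01 ± 0.28 in DP versus SP cells (95% interval -0.62 to 0.60, adjusted p in limma = 0.994). The log2 ratio of Dnmt3a to Dnmt3b was 0.32 higher in G0M+ than in G0M- cells and did not pass (exact permutation test, p = 0.145, adjusted p = 0.217).

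The ratio of Dnmt3a to Dnmt1 followed from these levels. Dnmt3a made up 13.7% to 17.2% of the summed RPKM of the pair in DP cells, 10.3% to 12.1% in SP cells, 13.7% to 25.6% in IMDP cells and 8.63% to 10.3% in IMSP cells. The log2 ratio was -2.41 ± 0.20 (SD, n = 3) in DP cells, -2.99 ± 0.13 in SP cells, -1.99 ± 0.58 in IMDP cells and -3.21 ± 0.15 in IMSP cells, and within each treatment the G0M+ libraries lay above the G0M- libraries. Averaged over both treatments it was 0.89 higher in G0M+ cells (exact permutation test within treatments, p = 0.005, the smallest possible, adjusted p = 0.03). It was higher in 6 of 6 pairs of neighbouring library numbers (exact sign flips, p = 0.0312, the smallest possible). With 6 pairs a ratio on its own cannot pass after adjustment, so the pairing does not decide whether the call holds. The exact permutation adjusted p was 0.06 without SP replicate 1 (0.87). The ratio differed by 0.10 with imatinib (exact permutation test, p = 0.615, adjusted p = 0.738).

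Tet2 (chromosome 3, 133463677 to 133545136) encodes the enzyme that starts the removal of DNA methylation. It was at 5.75, 3.31 and 4.03 RPKM in DP cells, 4.34, 4.95 and 3.97 in SP cells, 4.22, 3.65 and 4.81 in IMDP cells and 7.14, 5.35 and 7.55 in IMSP cells. The IMSP libraries lay above the IMDP and SP libraries, and the first DP library was above the lowest of them. The log2 fold change was -0.64 ± 0.21 in IMDP versus IMSP cells (adjusted p in limma = 0.0426) and 0.57 ± 0.21 in IMSP versus SP cells, where it did not pass (adjusted p in limma = 0.492).

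Of the 7 calls in IMDP versus IMSP cells, those of Ezh2 and Suz12 remained under all 24 alternatives run, with log2 fold changes from -1.20 to -0.61 and from -1.12 to -0.52. Not all 24 could move these fold changes. Leaving out a DP or SP library changed only the shared spread, and keeping numbered copies apart left the levels of the 10 genes unchanged. Dnmt1 and Eed were called under 19 of 24, Dnmt3a under 18, Uhrf1 under 12 and Tet2 under 11. The calls of Dnmt1, Eed, Dnmt3a, Uhrf1 and Tet2 were each lost without IMDP replicate 2, IMDP replicate 3 or IMSP replicate 1. For Dnmt1 the limma adjusted p was then 0.0612, 0.0574 and 0.0662, for Eed 0.0682, 0.0525 and 0.0778, and for Dnmt3a 0.124, 0.0778 and 0.113. Dnmt3a was also lost without IMSP replicate 3 (adjusted p in limma = 0.0896) and SP replicate 1 (adjusted p in limma = 0.0504). With libraries scaled to equal medians, Ezh2, Suz12, Dnmt1 and Eed were lower and Dnmt3a and Ezh1 higher, and Uhrf1 (-0.43, adjusted p in limma = 0.125) and Tet2 (-0.37, adjusted p in limma = 0.228) did not pass. Under that scaling 9.18% of all genes were lower and 6.29% higher. With libraries scaled to equal sums of RPKM, 4 of the 10 genes passed, Ezh2 and Suz12 lower and Dnmt3a and Ezh1 higher. There the balance over all genes turned, with 6.14% lower and 9.58% higher and a median of 0.16. Without DP replicate 1 and IMDP replicate 1, which had the most mast cell and basophil markers of their groups and were left out after the data were seen, 8 of the 10 genes passed, with Ezh2 at -1.20 (adjusted p in limma = 0.00166), Dnmt3a at 0.53 (adjusted p in limma = 0.0224) and Hells added, beside 29.7% of all genes.

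**Figure D3:**
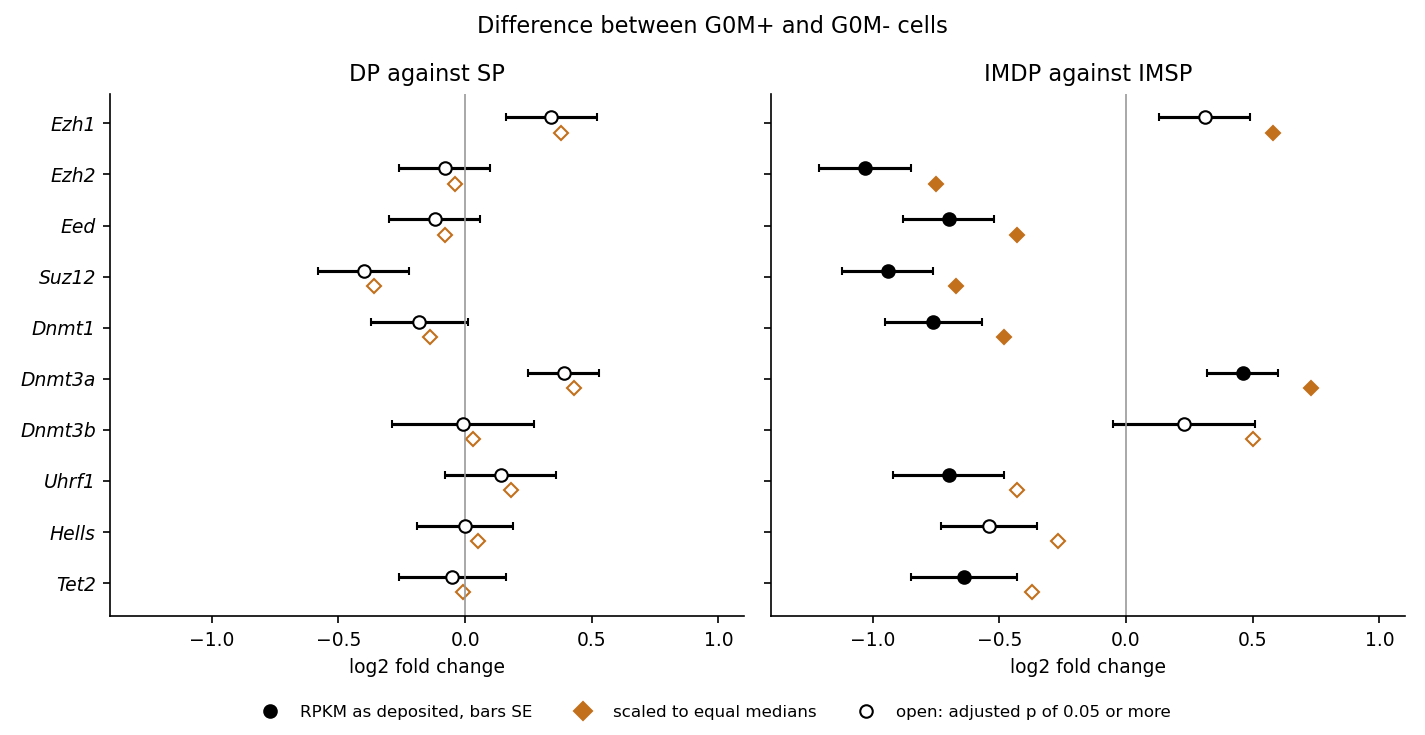
log2 fold changes of the 10 genes in DP versus SP cells (left) and IMDP versus IMSP cells (right). Circles are from RPKM as deposited, with bars for the SE, diamonds are from libraries scaled to equal medians, and filled symbols have a limma adjusted p under 0.05, which 7 circles on the right and none on the left reach.

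Averaged over both treatments, Ezh2 (log2 fold change -0.56 ± 0.13, adjusted p in limma = 0.0109), Suz12, Dnmt1 (-0.47 ± 0.13, adjusted p in limma = 0.0241) and Eed (-0.41 ± 0.13, adjusted p in limma = 0.0320) were lower and Dnmt3a higher in G0M+ cells, where 26.3% of all genes were called, 21.0% lower and 5.32% higher. Ezh1 was 0.33 ± 0.13 higher and did not pass (adjusted p in limma = 0.0714), but passed under both rescalings. Scaled to equal medians, Eed was lost (-0.25, adjusted p in limma = 0.0657), and 12.4% of all genes were lower and 11.1% higher. Scaled to equal sums, Ezh2 (-0.31, adjusted p in limma = 0.0611), Dnmt1 (-0.22, adjusted p in limma = 0.0903) and Eed (-0.17, adjusted p in limma = 0.168) were lost, and the balance turned to 8.90% lower and 14.8% higher. Over 23 alternatives Suz12 and Dnmt3a were called in 23, Ezh2 in 22, Dnmt1 in 15 and Eed in 13. With the replicate block from neighbouring library numbers, which paired G0M+ with G0M- libraries in all 6 pairs, 7 of the 10 genes passed, with Hells (-0.27, adjusted p in limma = 0.0430) and Tet2 (-0.35, adjusted p in limma = 0.0139) added, beside 46.9% of all genes. Without DP replicate 1 and IMDP replicate 1, 8 of the 10 passed, beside 32.8% of all genes. Counting only whether the libraries of the populations overlapped, Ezh1 and Dnmt3a were higher and Suz12 and Dnmt1 lower without overlap in DP versus SP cells, beside 9.68% and 12.7% of all genes. In IMDP versus IMSP cells Dnmt3a was higher and 6 genes were lower without overlap, beside 6.21% and 32.8% of all genes. In DP versus SP cells 2 of the 10 genes had an unadjusted p under 0.05 in limma, and limma-voom on the recovered reads also called none of them.

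Imatinib was compared with vehicle within each population. No gene of the 10 passed in IMDP versus DP cells, where 0.367% of all genes did, or in IMSP versus SP cells, where 0% did (0 genes by limma and by limma-voom, with 845 and 873 genes at an unadjusted p under 0.05). By limma-voom 0 of the 10 genes passed in either comparison. Ezh2 had the largest difference of the 10 in IMDP versus DP cells, at -0.64 ± 0.18 (adjusted p in limma = 0.107) and -0.47 relative to all genes, and it was the 1 gene of the 10 whose IMDP libraries all lay below the DP libraries, beside 19.0% of all genes lower and 4.58% higher without overlap. Suz12 and Dnmt1 were at -0.44 ± 0.18 and -0.45 ± 0.19, and 3 of the 10 genes had an unadjusted p under 0.05. Without IMDP replicate 1, in which Dnmt1 and Uhrf1 were highest of the IMDP libraries, Ezh2 (-0.81, adjusted p in limma = 0.0489), Dnmt1 (-0.70, adjusted p in limma = 0.0328) and Uhrf1 (-0.76, adjusted p in limma = 0.0394) passed, and genes called rose from 37 to 189. In IMSP versus SP cells Ezh1, Uhrf1, Hells and Tet2 were higher with imatinib without overlap, beside 11.1% of all genes higher and 2.72% lower, and 2 of the 10 genes had an unadjusted p under 0.05. Averaged over both populations, no gene of the 10 passed (0.854% of all genes did), with Ezh1 at 0.37 ± 0.13 (adjusted p in limma = 0.151), which passed when libraries were scaled to equal sums (0.50, adjusted p in limma = 0.0476).

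Whether the population difference changed with treatment was tested as an interaction. It called 0% of all genes by limma (0 genes, 937 at an unadjusted p under 0.05) and 0 by limma-voom. The interaction was -0.94 ± 0.26 for Ezh2 (95% interval -1.51 to -0.37, adjusted p in limma = 0.534), -0.84 ± 0.32 for Uhrf1 (adjusted p in limma = 0.534) and -0.58 ± 0.25 for Eed (adjusted p in limma = 0.534), beside a median of -0.25 over all genes. For Ezh1 it was -0.03 ± 0.25 (95% interval -0.58 to 0.52, adjusted p in limma = 0.979). A difference between the vehicle and imatinib comparisons was therefore not shown for any of the 10 genes. All imatinib libraries carry the library numbers 1 to 6 and all vehicle libraries 7 to 12, so treatment and library number cannot be told apart.

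Over the 12 libraries, the log2 levels of Ezh2 correlated with those of Dnmt1 (Pearson r = 0.92), Eed (0.91), Suz12 (0.91), Uhrf1 (0.83) and Hells (0.72). The correlation with Ezh2 was -0.63 for Dnmt3a, -0.35 for Ezh1, 0.42 for Tet2 and 0.15 for Dnmt3b. The lowest correlation involving Dnmt3a was that with Suz12 (r = -0.85). The libraries share 4 groups and differ in the share of reads on genes, so these values describe the libraries and were not tested. Of the 10071 other genes, the 4 closest to Ezh2 were Cnot1, Trim28, Smek1 and Zfp207 (r = 0.96 each). The 4 closest to Ezh1 were Ddx17 and Zfp784 (0.93) and Akap7 and Eef2k (0.92), and those closest to Tet2 were Dicer1 (0.96), Tspo (0.94), Rpp14 (0.93) and Trim11 (0.92). Ddx17, an RNA helicase gene, had the same order of groups as Ezh1, with means of 31.7 RPKM in IMDP, 23.8 in IMSP, 23.2 in DP and 17.5 in SP cells.

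Related genes were examined as lists in the same fit, with IMDP versus IMSP cells as the comparison in which most were called. Of 8 tested PRC2 partners, 3 (37.5%) were lower and 0 higher, beside 23.3% and 2.37% of all genes. These were the histone-binding subunits Rbbp4 (27.4 ± 3.11 RPKM (SD, n = 3) in IMSP and 17.2 ± 2.96 in IMDP cells, log2 fold change -0.68, adjusted p in limma = 0.00986) and Rbbp7 (-0.65, adjusted p in limma = 0.0124), and Aebp2, an accessory subunit (-0.45, adjusted p in limma = 0.0424). Lcorl, which encodes another accessory protein, passed only averaged over both treatments (-0.61, adjusted p in limma = 0.0174). The median of this list was -0.37, beside -0.25 for all genes.

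Of 23 tested genes of Polycomb repressive complex 1 and its variants, 2 were lower and 0 higher, or 8.70% called beside 25.6% of all genes, and the median was -0.15. L3mbtl2, a subunit of a variant complex, was at 9.84 ± 1.98 RPKM in IMSP and 4.56 ± 0.867 in IMDP cells (log2 fold change -1.09, adjusted p in limma = 0.00735), and Usp7, a deubiquitinase that also acts on UHRF1 and DNMT1, differed by -0.40 (adjusted p in limma = 0.0440). Relative to all genes these values were -0.83 for L3mbtl2 and -0.14 for Usp7. For the related lists, values under other scalings are not given here. Of 13 tested genes for enzymes that oppose Polycomb, 3 were lower and 0 higher, or 23.1%, near the share of all genes, with a median of -0.14. They were Whsc1 (Nsd2, an H3K36 methyltransferase, -0.66, adjusted p in limma = 0.00386), Bap1 (-0.56, adjusted p in limma = 0.0161) and Asxl1 (-0.54, adjusted p in limma = 0.0208), the last pair encoding the complex that removes ubiquitin from histone H2A. Kmt2c, an H3K4 methyltransferase gene, was higher in G0M+ cells averaged over both treatments (0.37, adjusted p in limma = 0.0181).

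Of 10 tested partners of DNA methylation, 4 (40%) were lower and 0 higher, with a median of -0.43. Ahcy, whose enzyme removes the S-adenosylhomocysteine left by methyltransferases, was at 39.3 ± 4.87 RPKM in IMSP and 18.2 ± 6.12 in IMDP cells (log2 fold change -1.15, adjusted p in limma = 0.00551). The others were Idh2 (-0.72, adjusted p in limma = 0.0419), Trim28 (-0.55, adjusted p in limma = 0.0211) and Usp7. In the DNA demethylation list, 1 of 7 tested genes (14.3%) was lower, the glycosylase gene Tdg (-0.74, adjusted p in limma = 0.0289), and the median was -0.28. Of 6 tested methyl-CpG readers, Mbd3 (-0.75, adjusted p in limma = 0.0122) and Mbd2 (-0.63, adjusted p in limma = 0.0400) were lower (33.3%), 0 were higher, and the median was -0.21. In DP versus SP cells the smallest adjusted p in limma over these 6 lists was 0.145, that of Ahcy (log2 fold change -0.75). With imatinib the smallest was that of Gadd45b, a DNA demethylation list gene named after its values were seen, at -2.11 in IMDP versus DP cells (adjusted p in limma = 0.0555).

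DNA replication genes were listed as a reference for dividing cells. In IMDP versus IMSP cells 14 of 23 (60.9%) were lower and 0 higher, with a median log2 fold change of -0.71, close to the -0.67 of the 10 genes. In DP versus SP cells 0 of 23 passed and their median was 0.01. Mki67 was lower in both comparisons, with a log2 fold change of -1.94 ± 0.23 in DP versus SP cells (adjusted p in limma = 0.00263) and of -2.90 ± 0.23 in IMDP versus IMSP cells (adjusted p in limma = 3.6e-05). The share of dividing cells was not measured in these files, and its part in the levels of the 10 genes was not tested.

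**Figure D4:**
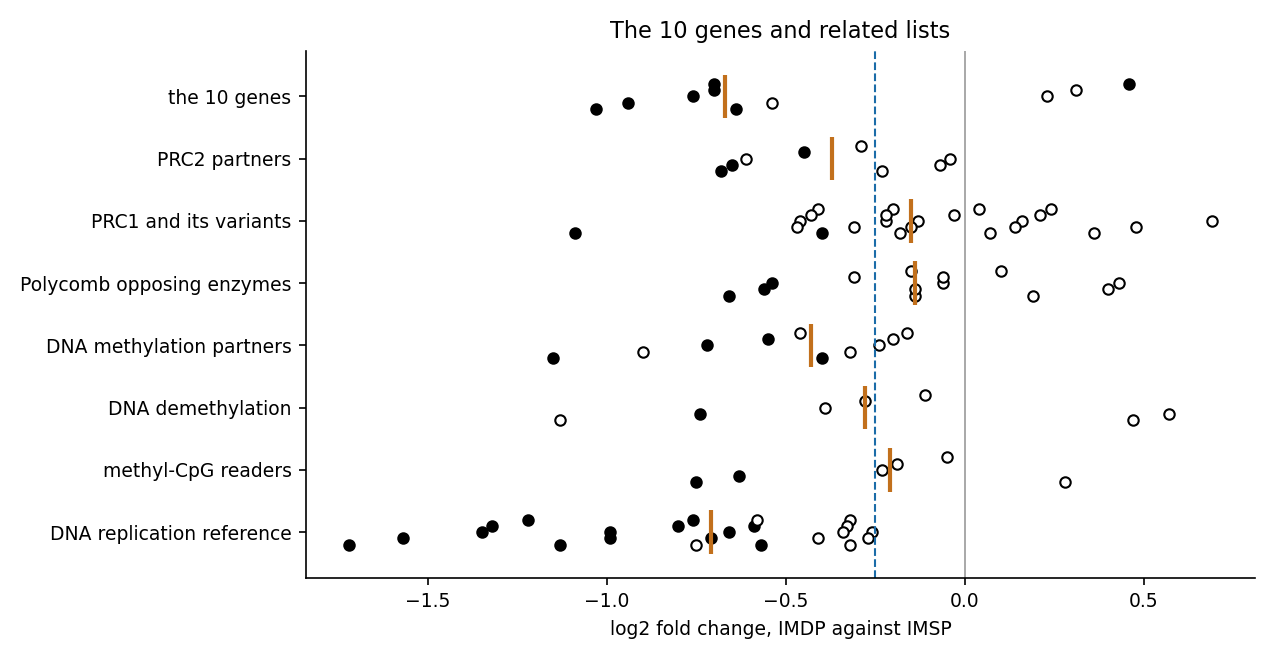
log2 fold change in IMDP versus IMSP cells of each tested gene of the 10 genes and of 7 related lists. Filled points have a limma adjusted p under 0.05, orange bars are list medians and the dashed line is the median of all genes (-0.25). The medians of the 10 genes (-0.67) and of the DNA replication reference (-0.71) lie furthest below that line.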

How the data were processed

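RNA of 100 sorted cells per library was sequenced on a NextSeq in 12 libraries. The authors mapped the reads to GRCm38/mm10 and deposited RPKM per feature and library. Their methods name CLC Genomics Workbench for mapping and their reporting summary HISAT2 and featureCounts. Whether the stated normalization is part of the deposited RPKM is not given in the sources used here, and replicates were not pooled. The authors also used edgeR, as the submitters' processing notes say.

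Numbered copies of a gene were summed (46103 genes). Whole reads behind the RPKM were recovered for 17735 of 17735 features above 0 (tolerance 0.02 reads), which gave totals of 11.4 to 20.6 M reads. PCR copies were not marked, so intervals from reads cover counting error only. Strand was not stated, and genes that share reads cannot be told apart.

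Groups came from the sample titles. A gene entered the test when 3 or more libraries had 1 RPKM or more, which held for 10072 genes. The values log2(RPKM + 0.1) were fitted by limma 3.58.1 (R 4.3.3) with a mean per group, a variance trend and Benjamini-Hochberg adjustment over all of them. Ratios were tested with exact permutations, two-sided. The script was tested on simulated data. Alternatives changed the pseudocount, filter, groups in the fit, scaling, summed copies, library left out and replicate block, or used limma-voom on recovered reads. Replicate numbers were checked for pairing. Equal title numbers pair IMDP and IMSP libraries (correlations of deviations 0.43, 0.65 and 0.46), with neighbouring library numbers doing so in DP and SP (0.50, 0.51 and 0.52) but title numbers not (-0.19, -0.30 and -0.10). The 10 genes, the lists and the tests were chosen with earlier results of these data known. From each related list up to 4 genes with the smallest adjusted p in the population contrast, among those past 0.05 in any contrast, were named, with genes past it in a treatment contrast, the label checks and the 4 genes most correlated with Ezh1, Ezh2 and Tet2. Promoter windows and coordinates came from RefSeq (GRCm38.p6). Python 3.11.15, scipy 1.17.1 and matplotlib 3.10.9 were used.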

Additional observations from a re-analysis of the deposited data

How the results depend on the processing

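With 3 libraries per group, differences of the size of the SEs given cannot be resolved, and scaling moves every level together. Genes called in IMDP against IMSP cells numbered 2581, and 1553 with only these groups fitted, 1559 scaled to equal medians, 1583 scaled to equal sums and 4446 with the replicate block from neighbouring library numbers. Of the 10 genes, 7 were called, and 2 with only these groups and 4 scaled to equal sums. With the neighbouring-number block, DP against SP calls went from 228 to 980 and population calls from 2648 to 4721. The title-number block left these counts within 1.5 times. Called genes in IMDP against DP cells went from 37 to 0 with only these groups, 2 scaled to medians, 14 scaled to sums, 8 with limma-voom and 1 without DP replicate 1 and IMDP replicate 1, an alternative chosen after seeing the data. Treatment calls went from 86 to 46 without a filter, 162 and 246 with the scalings, and 14 without those libraries. For the 10 genes the population count was 5, and 3 scaled to sums, 7 with the neighbouring-number block and 8 without those libraries, and the treatment count was 0, and 1 scaled to sums. The cause was not tested. Leaving out 1 library gave 125 to 264 calls in DP against SP, 902 to 2962 in IMDP against IMSP (2 to 8 of the 10 genes), 0 to 189 in IMDP against DP (0 to 3), 1583 to 3061 for the population (3 to 6), 12 to 143 for treatment and 0 to 1 for the interaction.

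The Ezh1 to Ezh2 ratio differed between populations by 0.88, and by 0.43 in vehicle and 1.34 in imatinib libraries alone. Without those 2 libraries it differed by 0.91 (exact permutation adjusted p = 0.06). With both replicate blocks it was 0.88 (adjusted exact p = 0.188 with title numbers). The Dnmt3a to Dnmt1 ratio, 0.89, was 0.58 in vehicle libraries alone, 1.11 without those 2 libraries (exact permutation adjusted p = 0.06) and 0.89 with both blocks. Neither ratio passed with a block or without those 2 libraries. With 6 pairs, or without those 2 libraries, a ratio on its own cannot pass after adjustment over 6 tests. These alternatives therefore do not decide whether the calls hold. Without 1 library the population differences of the 2 ratios ran from 0.83 to 0.98 and from 0.78 to 1.06. The Ezh1 to Ezh2 treatment difference then ran from 0.49 to 0.64, and those of Dnmt3a to Dnmt1 and to Dnmt3b from -0.02 to 0.26 and from -0.07 to 0.15. The Ezh1 interaction, -0.03, turned to 0.20 and 0.32 under the scalings and ran from -0.16 to 0.10 without 1 library. Over all alternatives Ezh2 in DP against SP ran from -0.21 to 0.04 and Dnmt3b in IMDP against IMSP from -0.10 to 0.65. Without 1 library Dnmt3b ran from -0.10 to 0.40.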
